A study of Danio rerio with 6 samples.

Results

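Transcripts of 10 apolipoprotein genes of the zebrafish were followed in the injured and the uninjured telencephalon. The genes were *apoeb*, *apoea*, *apoc1*, *apoa1a*, *apoa1b*, *apoa2*, *apoa4b.1*, *apobb.1*, *apoda.1* and *clu*, taken by gene name from the 32520 genes counted. Telencephalic hemispheres of adult zebrafish were injured with a needle, and polyadenylated RNA was sequenced at 5 dpl (days post lesion), as 3 libraries from injured and 3 libraries from uninjured (control) hemispheres. The study names the contralateral hemisphere as the uninjured control and describes the replicates as biological, whereas the labels give neither an age nor a strain and do not say which hemispheres came from the same fish. The *p*-values below therefore measure only the spread between these libraries. The question was which of these genes had a different steady state level of RNA after injury.

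Apolipoproteins are the protein part of lipoprotein particles, which carry cholesterol, phospholipids and other lipids in an aqueous medium. In the vertebrate brain, which is largely cut off from plasma lipoproteins, apolipoprotein E is made mainly by glia, and loaded with lipid by ABC transporters it delivers cholesterol to cells through receptors of the LDL receptor family. In mammals, microglia and macrophages raise their expression of *Apoe* when they take up dying cells and myelin debris. The fish genome holds duplicated copies of several of these genes, among them *apoea* and *apoeb*.

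The libraries held 63200617 to 91663196 reads on genes after injury and 59675791 to 84610201 in control. Values are given as CPM, a gene's reads per 1000000 reads on genes, with library sizes adjusted by TMM (trimmed mean of M-values). Levels per transcript length could not be computed from the files, so CPM values of different genes are not compared as amounts of transcript. Changes were tested with edgeR's quasi-likelihood test of injured against control libraries. Its *p*-values were adjusted over 22558 genes with sufficient counts (adjp), and a gene was called at adjp below 0.05. Markers of pineal and photoreceptor cells, such as *gnat1* and *saga*, summed to 120 and 278 CPM in the injured libraries 1 and 3, against 7.57 CPM in the injured library 2 and 6.48 to 8.65 CPM in control, so the main results are also given for the injured library 2 alone. In that fit the single library is assumed to vary like those of the control group. Neuronal markers were abundant in every library, at 4564 to 4885 CPM in total after injury and 5246 to 5344 CPM in control.

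*apoeb* and *apoc1* rose strongly upon injury, whereas no other gene of the 10 was called in edgeR's test of condition alone. With the replicate number added as a block, *apoa2* was also called higher (adjp = 0.0246, edgeR), beside 19.9% of all genes. Of the 7 genes with sufficient counts for the test, edgeR called 2 higher, beside 11.6% of all genes tested, and 0 lower, beside 4.82% of all genes. At an unadjusted *p* below 0.05, edgeR gave the same counts, 2 higher and 0 lower, beside 18.6% and 12% of all genes, and DESeq2 also called 2 higher and 0 lower, beside 13.5% and 8.55% of all genes. The other 3 genes (*apoea*, *apoa4b.1* and *apoda.1*) had at most 9 reads in any library and were not tested. The injured libraries all lay above the control libraries for 3 of the 7 genes, *apoeb*, *apoc1* and *apoa1a*, and all below them for *apoa1b*, beside 20.3% and 15.5% of all genes tested. In these bulk samples, more cells of a type and more RNA per cell cannot be told apart.

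**Figure D1:**
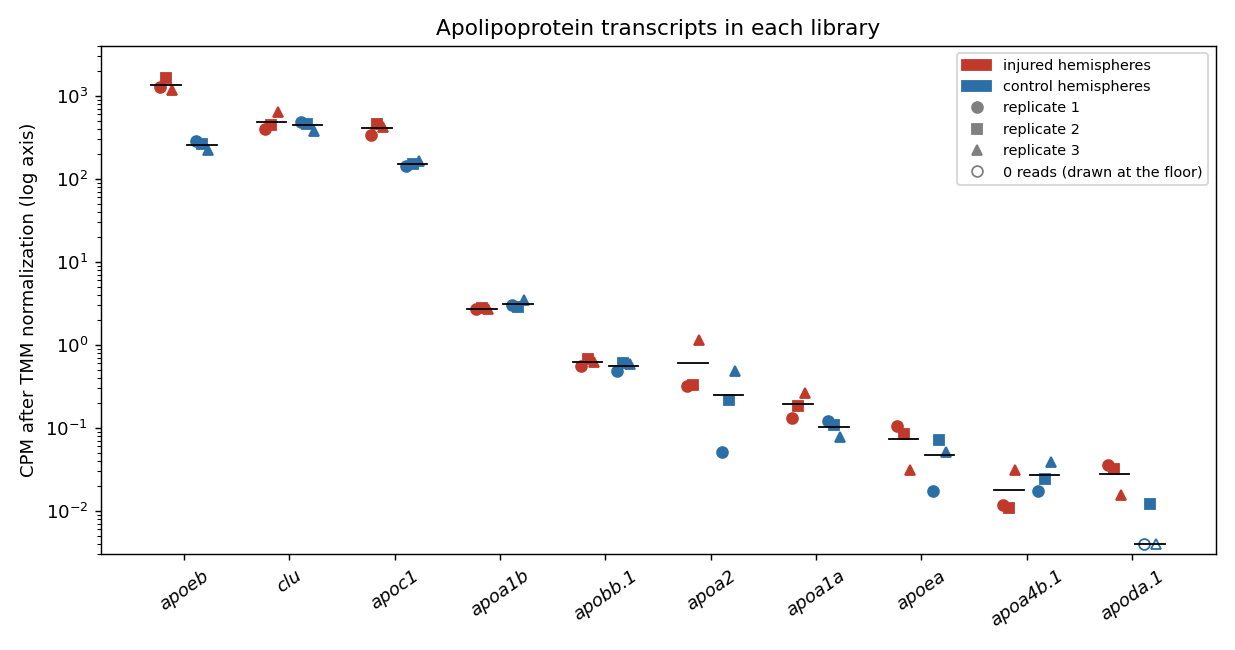
Expression of the 10 apolipoprotein genes in every library. The y axis gives CPM after TMM normalization on a log scale, each symbol is 1 library (injured in red, control in blue) and the black lines are group means. The injured libraries of *apoeb*, at 1169 to 1652 CPM, and of *apoc1*, at 336 to 458 CPM, stand clear of their controls, while those of *clu* overlap with them.

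*apoeb* (ENSDARG00000040295) encodes a fish apolipoprotein E, a ligand by which lipoprotein particles bind LDL receptors. Its level was 1269, 1652 and 1169 CPM in the injured libraries 1 to 3, against 290, 262 and 225 CPM in the control libraries, from 75407 to 154839 reads after injury and 16901 to 21809 reads in control. The lowest injured library thus lay well above the highest control library. The mean was 1363 ± 255 CPM after injury and 259 ± 32.2 CPM in control (SD, n = 3 each), a 5.26-fold difference. On the log2 scale, *apoeb* rose by 2.40 ± 0.15 (SE), with adjp = 5.50e-04 in edgeR's quasi-likelihood test and a 95% interval of 4.14-fold to 6.69-fold. Among the 2628 genes called higher, 83 had a larger log2 fold change. None of the other genes called higher with a mean level of at least 100 CPM, a group of 124 genes including *apoeb*, had a larger log2 fold change than *apoeb*.

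The increase of *apoeb* did not rest on a single library. With each library left out in turn, its log2 fold change stayed between 2.23 and 2.50, with an adjp of at most 0.00576 (edgeR). The injured library 2, with little pineal RNA, was the highest of the 3, and alone against control it gave a log2 fold change of 2.68 (adjp = 0.00219, edgeR), beside 6.22% of all genes called higher and 1.25% called lower in that fit. Between libraries of the same replicate number, *apoeb* was 4.38-fold, 6.31-fold and 5.18-fold higher after injury.

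*apoc1* (ENSDARG00000092170) encodes apolipoprotein C-I, a small exchangeable apolipoprotein that in mammals inhibits cholesteryl ester transfer protein and hinders the binding of particles to their receptors. It was measured at 336, 458 and 424 CPM after injury, against 142, 150 and 163 CPM in control, from 27386 to 42962 reads after injury and 8285 to 12602 reads in control. Again the groups did not overlap, and the control libraries lay close together. The mean was 406 ± 63.4 CPM after injury and 152 ± 10.7 CPM in control (SD, n = 3 each), a 2.67-fold difference. *apoc1* rose by 1.42 ± 0.11 (SE) on the log2 scale, with adjp = 9.73e-04 (edgeR) and a 95% interval of 2.22-fold to 3.22-fold. Leaving out each library in turn gave 1.32 to 1.53 with an adjp of at most 0.00741, and the injured library 2 alone gave 1.60 (edgeR).

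*apoeb* and *apoc1* are neighbors on the chromosome, and they did not change to the same extent. Within a library, there were 3.78, 3.60 and 2.75 reads of *apoeb* per read of *apoc1* after injury, against 2.04, 1.74 and 1.38 in control. The ratio was higher in every injured than in every control library, by 0.98 on the log2 scale. The exact two-sided permutation test gave *p* = 0.1, the smallest value that 3 against 3 libraries allow. This ratio was chosen after the values of both genes had been seen, and being taken within a library it does not depend on the scaling of libraries.

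**Figure D2:**
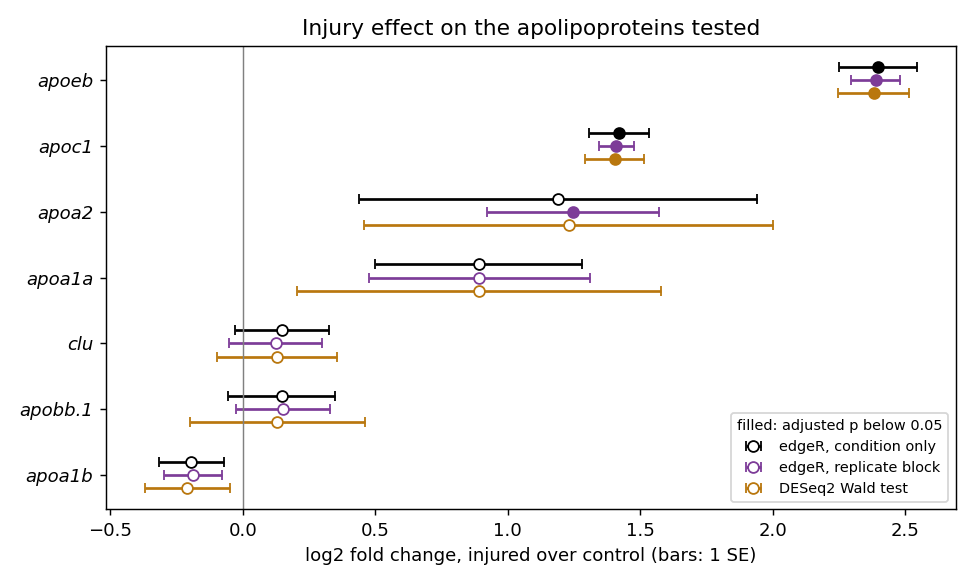
Injury effect on the 7 apolipoprotein genes tested. The x axis gives the log2 fold change of injured over control, bars are 1 SE, filled symbols mark an adjusted p below 0.05, and colors distinguish edgeR with condition only, edgeR with replicate as a block, and DESeq2. *apoeb* at 2.40 and *apoc1* at 1.42 were called in all 3 fits, and *apoa2* only in the fit with the block.

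*apoea* (ENSDARG00000102004), the paralog of *apoeb*, had few reads in the telencephalon. There were 9, 8 and 2 reads in the injured libraries and 1, 6 and 4 reads in the control libraries. Summed over libraries, these were 19 of 238338248 reads after injury and 11 of 223098699 reads in control, a rate ratio of 1.62 with an exact 95% interval of 0.731 to 3.76. This interval covers counting error only, as do the other intervals from summed reads below. A difference was thus not detectable at this depth. Of the reads on the *apoe* pair, *apoeb* took nearly all in both groups, with 11940, 19355 and 37704 reads of *apoeb* per read of *apoea* after injury and 16901, 3635 and 4350 in control. The groups overlapped in this ratio, and its log2 difference of 1.68 rested on few *apoea* reads (exact two-sided permutation test, *p* = 0.2).

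*clu* (ENSDARG00000010434) encodes clusterin, also called apolipoprotein J, a secreted chaperone that is found on lipoprotein particles of the brain. Its level was 395, 443 and 633 CPM after injury, against 491, 458 and 380 CPM in control. The groups overlapped, and the injured library 3 stood above all the others. The mean was 490 ± 126 CPM after injury and 443 ± 57.2 CPM in control (SD, n = 3 each), and the log2 fold change was 0.15 ± 0.18 (SE), with adjp = 0.644 (edgeR) and a 95% interval of 0.831-fold to 1.48-fold.

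The sign of the *clu* estimate depended on a single library. Without the injured library 3 the log2 fold change was -0.08, and between libraries of the same replicate number *clu* was 0.805-fold, 0.967-fold and 1.67-fold of control. *rbp4*, which encodes the plasma retinol carrier, was also highest in the injured library 3, with 183, 186 and 397 CPM after injury and 269, 245 and 206 CPM in control. The pineal and photoreceptor markers had their highest sum in the same library, at 278 CPM. They summed to 120 CPM in the injured library 1, which had the lowest *clu* (395 CPM) and *rbp4* (183 CPM) of the injured libraries. The part of other cells in the *clu* value of the injured library 3 was not tested.

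**Figure D3:**
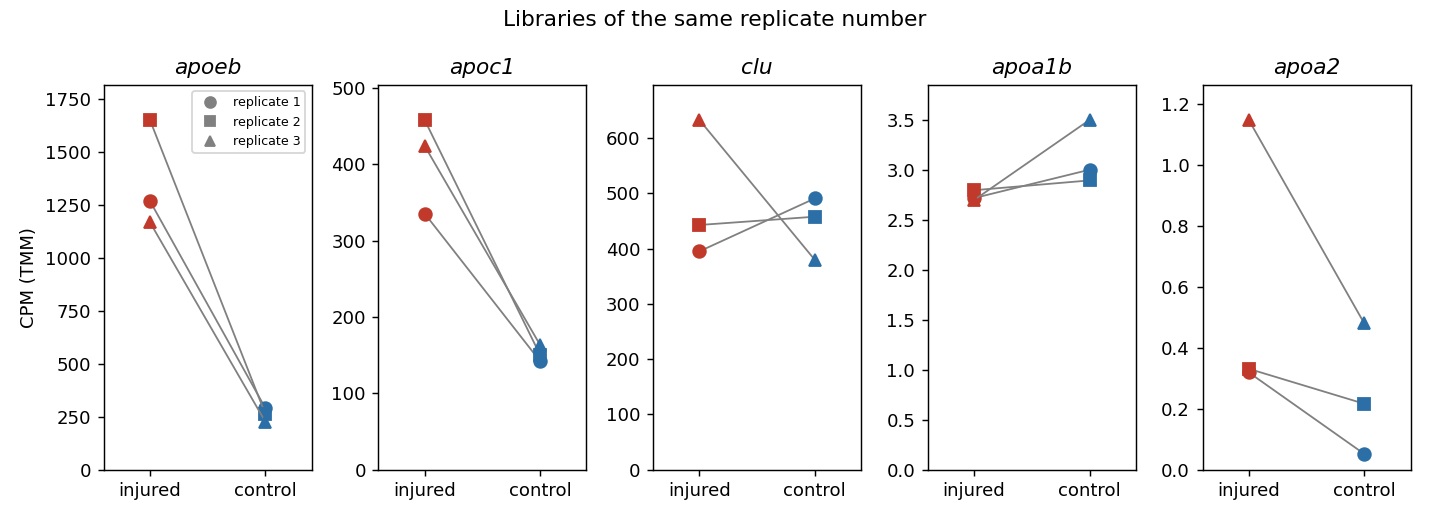
Libraries of the same replicate number for 5 apolipoprotein genes. Each panel gives CPM on its own linear y axis, with the injured library on the left joined to the control library of the same number on the right. For *apoeb*, *apoc1* and *apoa2* all 3 lines lie higher at the injured end, for *apoa1b* all 3 lie lower, and for *clu* only the pair of replicate 3 lies higher after injury.

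The pair of genes for apolipoprotein A-I, the main protein of high density lipoprotein and an acceptor of cholesterol from ABCA1, was measured at low levels and without a call. *apoa1b* (ENSDARG00000101324) had 2.72, 2.80 and 2.70 CPM after injury, against 3.00, 2.89 and 3.50 CPM in control, from 174 to 262 reads after injury and 175 to 270 reads in control. The groups did not overlap, with the injured libraries lower by a small margin. The mean was 2.74 ± 0.0522 CPM after injury and 3.13 ± 0.323 CPM in control (SD, n = 3 each), and the log2 fold change was -0.19 ± 0.12 (SE), with adjp = 0.344 (edgeR). The 95% interval of the log2 fold change, -0.48 to 0.09, leaves out a change of the size seen for *apoc1*.

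*apoa1a* (ENSDARG00000012076) had 0.130, 0.181 and 0.263 CPM after injury, against 0.120, 0.108 and 0.0777 CPM in control. These values stem from only 11, 17 and 17 reads after injury and 7, 9 and 6 reads in control. The groups did not overlap, with the injured libraries higher and a log2 fold change of 0.89 ± 0.39 (SE) and adjp = 0.175 (edgeR). Within a library, the log2 ratio of *apoa1a* to *apoa1b* reads was higher by 1.06 after injury (exact two-sided permutation test, *p* = 0.1, the smallest value possible). Leaving out a library changed this difference to between 0.79 and 1.31.

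*apoa2* (ENSDARG00000015866) encodes apolipoprotein A-II, a second protein of high density lipoprotein. It was measured at 0.319, 0.331 and 1.15 CPM after injury, against 0.0514, 0.216 and 0.479 CPM in control, from 27, 31 and 74 reads after injury and 3, 18 and 37 reads in control. In both groups library 3 was the highest and library 1 the lowest, and the groups overlapped. The log2 fold change was 1.19 ± 0.75 (SE) with adjp = 0.341 (edgeR).

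With replicate as a block, *apoa2* was higher by 1.25 ± 0.33 (SE) on the log2 scale, with adjp = 0.0246 (edgeR), and this was the only call among the 10 genes that the block changed. The block raised the calls of all genes as well, to 19.9% higher and 16.2% lower. Within replicate numbers, *apoa2* was 6.20-fold, 1.53-fold and 2.39-fold higher after injury. Without a block, its log2 fold change was between 0.35 and 2.05 with each library left out, and 0.38 for the injured library 2 alone.

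Some transcripts of the liver were also lowest in library 1. Of the 16 liver and plasma markers matched, 7 had their lowest level in library 1 of both groups, as *apoa2* did, and 9 did not. The share of all genes with library 1 lowest in both groups was not counted, so it cannot be set beside the 7 of 16. Among the 7, *vtg1*, which encodes the yolk precursor vitellogenin made by the liver of females, had 0.0709, 4.08 and 14.1 CPM after injury and 0.0857, 5.28 and 12.4 CPM in control. *fabp10a*, a fatty acid binding protein of hepatocytes, had 0.0236, 0.245 and 0.775 CPM after injury and 0.0343, 0.264 and 0.285 CPM in control. In library 1 of both groups, *vtg1* and *fabp10a* were close to the detection limit. The summed level of all 16 had another order, with 575, 626 and 896 CPM after injury and 597, 723 and 541 CPM in control, most of it from *cp* and *rbp4*. Of the 16, 10 were tested and 1, *tfa*, was called higher, a share near the 11.6% of all genes. The part of such RNA in the *apoa2* values was not tested.

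*apobb.1* (ENSDARG00000022767) encodes apolipoprotein B, the non-exchangeable scaffold of particles that liver, intestine and yolk secrete. It had 0.555, 0.672 and 0.620 CPM after injury, against 0.480, 0.600 and 0.583 CPM in control, from 40 to 63 reads after injury and 28 to 50 reads in control. The groups overlapped, and the log2 fold change was 0.15 ± 0.20 (SE), with adjp = 0.696 (edgeR) and an interval of -0.33 to 0.62.

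The remaining genes were close to the detection limit. *apoa4b.1* (ENSDARG00000040298), a copy of the apolipoprotein A-IV gene of the intestine, had 1, 1 and 2 reads after injury and 1, 2 and 3 reads in control, with a rate ratio of 0.624 between the summed reads and an exact 95% interval of 0.130 to 2.63. *apoda.1* (ENSDARG00000060345), a copy of the gene of the lipocalin apolipoprotein D, had 3, 3 and 1 reads after injury and 0, 1 and 0 reads in control. The sums of 7 and 1 reads gave a rate ratio of 6.55, with an exact 95% interval of 0.842 to 295. For neither gene was a difference detectable at this depth.

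The share of these 10 genes in the library changed accordingly. They took 0.203%, 0.261% and 0.228% of the reads on genes after injury, against 0.0906%, 0.0860% and 0.0757% in control, and their summed level was 2264 ± 278 CPM after injury and 858 ± 77.9 CPM in control (SD, n = 3 each), a 2.64-fold difference. *apoeb* made up 63.3%, 64.6% and 52.4% of these reads after injury, against 31.3%, 30.0% and 29.2% in control. *apoc1* kept a similar share, 16.8% to 19.0% after injury and 15.3% to 21.1% in control. *clu* held 17.3% to 28.4% after injury and 49.1% to 53.0% in control. The other 7 genes together had 0.161% to 0.215% of these reads after injury and 0.398% to 0.612% in control. These are shares of reads and not of transcripts.

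**Figure D4:**
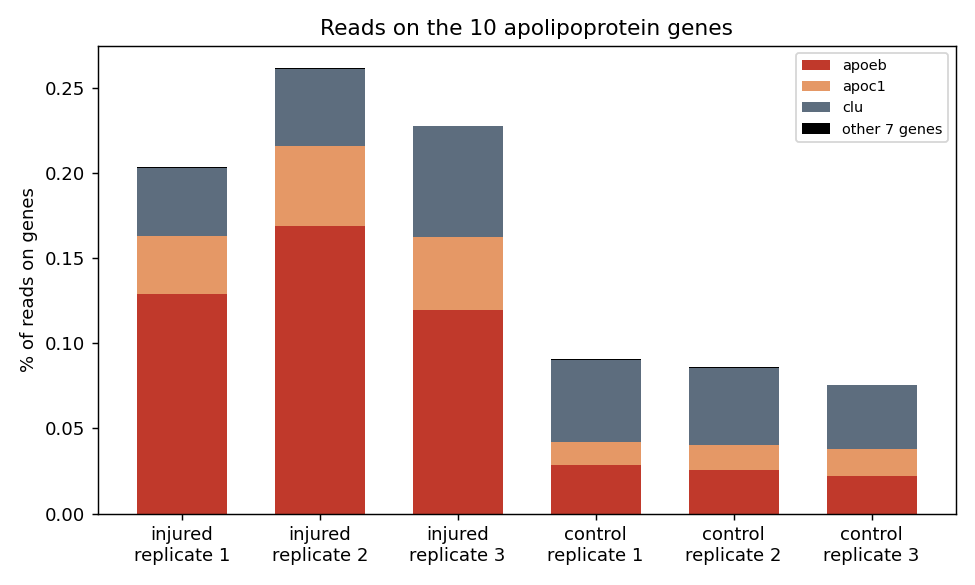
Share of the reads on genes that fell on the 10 apolipoprotein genes. The y axis gives percent of the reads on genes in each of the 6 libraries, and colors divide a bar into *apoeb*, *apoc1*, *clu* and the other 7 genes. The bars reach 0.203% to 0.261% in injured and 0.0757% to 0.0906% in control libraries, and the segment of *apoeb* differs most between the groups.

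*apoeb* and *apoc1* lie in a cluster of apolipoprotein genes. In the RefSeq annotation of the assembly GRCz12tu, which is not the build of the counts, chromosome 16 holds in this order *apoa4b.1*, *apoa4b.3*, *apoa4b.2*, *apoeb*, *apoc1*, *apoc4*, *apoa2* and *apoc2*, with other gene models between some of them. The reads were spread very unevenly over these 8 genes. Beside the high counts of *apoeb* and *apoc1*, *apoa4b.3* had 0 reads in every library, *apoa4b.2* had 1 read in a single injured library, and *apoc4* had 1 read in 1 injured and 1 read in 1 control library. *apoc2*, whose product is the cofactor of lipoprotein lipase, had 14, 12 and 15 reads after injury and 1, 5 and 3 reads in control. It rose by 2.04 ± 0.49 (SE) on the log2 scale (adjp = 0.0310, edgeR), but was called in 0 of the 6 fits with a library left out, where the adjp reached 0.105. *apoea* lies apart on chromosome 19, beside *apoa4a*.

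In the same assembly, *apoda.1* overlaps *apoda.2*, *apoa1a* overlaps *rnf214*, *apoea* overlaps *si:dkey-3n22.9* and *apoc1* overlaps an uncharacterized gene model. The strand setting of the counts is not given in the sources used here, so reads of such partners may not have been separated. Reads shared by near-identical copies, such as the *apoa4b* genes, are likewise uncertain.

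Among 17975 genes with a mean level of at least 1 CPM, the 5 whose log2 CPM ran most like that of *apoeb* over the 6 libraries were *ELOVL1* (r = 0.9997), *grapa* (r = 0.9993), *f11r.1* (r = 0.9988), *RIN2* (r = 0.9985) and *SKAP2* (r = 0.9983). *ELOVL1* encodes an elongase of very long chain fatty acids, and *SKAP2* an adaptor protein of leukocytes. *ELOVL1* had 38.8, 43.9 and 37.7 CPM after injury, against 22.0, 21.4 and 19.8 CPM in control. Its libraries fell in the same order as those of *apoeb*. The contrast between injured and control libraries dominates such coefficients, 1166 genes had r above 0.95, and *apoc1* reached r = 0.972. They are given as a description over 6 libraries.

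Markers of several cell types moved with *apoeb* and *apoc1*. The list of microglia and leukocyte markers held 18 names, and 14 of them matched a single gene. Of 14 microglia and leukocyte markers tested, 13 were called higher, the exception being *hexb*, beside 11.6% of all genes. The summed level of the 14 was 998 to 1040 CPM after injury and 503 to 507 CPM in control. Most of it came from *cd74a* and *cd74b*. The range of log2 fold changes was 0.05 to 1.79, below the 2.40 of *apoeb*, whereas the 1.42 of *apoc1* lay within this range. The median of the markers was 1.07, beside a median of -0.0038 over all genes tested. Of these markers, *csf1ra*, which encodes the receptor for colony stimulating factor 1, had 55.4, 50.5 and 49.7 CPM after injury and 29.1, 23.3 and 22.0 CPM in control. Within a library there were 22.9, 32.7 and 23.5 reads of *apoeb* per read of *csf1ra* after injury, against 9.97, 11.2 and 10.2 in control, a log2 difference of 1.32 (exact two-sided permutation test, *p* = 0.1, the smallest value possible). For *apoc1* per read of *csf1ra* the groups overlapped, with 6.06, 9.07 and 8.54 after injury and 4.89, 6.43 and 7.41 in control (log2 difference 0.34, *p* = 0.3, exact permutation test). Between libraries of the same replicate number, it was higher after injury in 3 of 3 pairs (*p* = 0.25, exact two-sided permutation within pairs, the smallest value possible). Both ratios were chosen after the values had been seen. With a log2 fold change of 1.06 (edgeR), *csf1ra* rose less than *apoc1*. No ratio was taken to markers that rose more than *apoc1*, such as *spi1b* (1.65) and *tspan36* (1.79).

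Of 6 radial glia markers tested, 5 were called higher, among them *gfap*, the intermediate filament of glia, with 165 ± 23.1 CPM after injury and 73.0 ± 5.50 CPM in control (SD, n = 3 each). Their summed level was 584 to 764 CPM after injury and 378 to 434 CPM in control. Also called higher were 6 of 9 oligodendrocyte markers, 4 of 5 markers of endothelium and pericytes and 7 of 10 markers of fibroblasts and meninges, while 2 of 5 neuronal markers were called lower. Over all genes, the shares were 11.6% higher and 4.82% lower. Of the names listed, 6 of 12 for radial glia and 5 of 12 for neurons matched a single gene. For endothelium and pericytes, 5 of 9 names matched. The unmatched markers, among them *fabp7a* of radial glia, are not covered. The part of cell composition in the increase of *apoeb* and *apoc1* was not tested.

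Of 16 other apolipoprotein names listed, 11 matched a single gene and 6 were tested. Of these, edgeR called 4 higher and 0 lower, beside 11.6% and 4.82% of all genes. At an unadjusted *p* below 0.05, edgeR gave the same counts, beside 18.6% and 12% of all genes. DESeq2 called 3 higher and 0 lower, beside 13.5% and 8.55% of all genes, and gave *apoc2* no adjusted *p*. The groups overlapped for both genes that edgeR did not call, *apoba* (adjp = 0.384, edgeR) and *apom* (adjp = 0.358, edgeR). The median log2 fold change was 0.83. *apol*, of the apolipoprotein L family, had 9.46 ± 1.65 CPM after injury and 5.18 ± 0.501 CPM in control (SD, n = 3 each), and the log2 fold change was 0.87 (adjp = 0.00866, edgeR). *apof* had 2.79 ± 0.219 CPM after injury and 1.63 ± 0.0915 CPM in control (SD, n = 3 each), and the log2 fold change was 0.78 (adjp = 0.00987, edgeR). *apol1*, at 0.693 CPM after injury and 0.325 CPM in control, rose by 1.08 (adjp = 0.0200, edgeR), and its call was lost without the injured library 2 or 3 or the control library 1 or 2, when the adjp was 0.0555 to 0.0717. Together with *apoc2*, these losses left 2 or 3 of the 4 calls when a library was left out. In the injured library 2 alone, the log2 fold change was 1.12 for *apol*, 0.65 for *apof*, 1.15 for *apol1* and 1.63 for *apoc2*.

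The receptors of apolipoprotein E that could be matched showed no common direction. The list held 29 receptor and adaptor names, and 22 of them matched a single gene. *lrp1aa*, *lrp1ab* and *lrp1bb* did not, so these receptor genes are not covered. Of 22 receptor and adaptor genes tested, 2 were called higher and 4 lower, beside 11.6% and 4.82% of all genes, with a median log2 fold change of -0.07. The LDL receptor genes fell, *ldlra* with 1.64, 1.59 and 1.83 CPM after injury against 4.15, 3.64 and 3.38 CPM in control, and *ldlrb* with 16.8, 11.9 and 20.1 CPM after injury against 31.5, 28.8 and 37.5 CPM in control. For *ldlra* the log2 fold change was -1.14 ± 0.14 (SE, adjp = 0.00306, edgeR). For *ldlrb* it was -1.01 ± 0.19 (SE, adjp = 0.0133, edgeR), with adjp = 0.0515 without the control library 3. *scarb2a*, of the scavenger receptor class B family, had 67.0 CPM after injury and 96.3 CPM in control (log2 fold change -0.52, adjp = 0.00519, edgeR).

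The next genes encode the receptors of neurons that bind both apolipoprotein E and reelin. *vldlr* had 226 ± 8.90 CPM after injury and 250 ± 4.82 CPM in control (SD, n = 3 each), and the log2 fold change was -0.14 with adjp = 0.0555 (edgeR). All injured libraries lay below the control libraries, and *vldlr* was called lower with replicate as a block (adjp = 0.00622), with DESeq2 (adjp = 0.0167, Benjamini-Hochberg), with RLE normalization (adjp = 0.048) and without the injured library 1 (adjp = 0.0339). *lrp8*, which encodes apolipoprotein E receptor 2, had 363 ± 26.7 CPM after injury and 371 ± 14.6 CPM in control (SD, n = 3 each), with a log2 fold change of -0.03 (adjp = 0.787, edgeR) that turned to 0.03 without the injured library 3. The block raised the calls of this list to 4 higher and 7 lower, beside 19.9% and 16.2% of all genes. *lrp5* (log2 fold change 0.51, adjp = 0.0193) and *lrp10* (0.30, adjp = 0.0138) were the genes called higher in edgeR's test. The call of *lrp5* was lost without the injured library 2 or 3 or the control library 1, and that of *lrp10* without the control library 1 or 3. In the injured library 2 alone, the log2 fold change was 0.54 for *lrp5* and 0.41 for *lrp10*.

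Genes that load lipid onto apolipoproteins or remodel the particles were listed together with nuclear receptors, other transcription factors and a few other genes. This list held 31 names, and 24 of them matched a single gene, whereas *lpl*, *rxraa* and *rxrab*, among others, did not. Of the 22 genes of this list tested, 10 were called higher, 2 were called lower and 10 were not called. Over all genes, 11.6% were called higher and 4.82% lower. The median log2 fold change of the list was 0.37. Transcription factors are among its calls in both directions. *abca1a*, which encodes a cholesterol transporter of the cell membrane, had 871, 895 and 803 CPM after injury, against 410, 399 and 403 CPM in control. The groups lay far apart, and *abca1a* rose by 1.09 ± 0.05 (SE) on the log2 scale (adjp = 2.45e-04, edgeR). Its paralog *abca1b* had 45.1, 66.6 and 54.0 CPM after injury, against 13.7, 21.1 and 22.1 CPM in control (log2 fold change 1.54 ± 0.20, SE, adjp = 0.00420, edgeR). *abcg1*, the transporter that passes cholesterol to particles already carrying lipid, had 25.9 ± 2.82 CPM after injury and 15.3 ± 0.372 CPM in control (SD, n = 3 each; log2 fold change 0.75, adjp = 0.00276, edgeR).

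*pltp*, which encodes the phospholipid transfer protein, rose by 0.72 on the log2 scale, with 71.5 CPM after injury and 43.3 CPM in control (adjp = 0.0046, edgeR). *lcat*, whose product esterifies cholesterol on the particles, had 1.73 CPM after injury and 1.75 CPM in control and was not called (adjp = 0.978, edgeR), and the sign of its log2 fold change of -0.01 turned without the injured library 3 or the control library 2. *lipg*, the endothelial lipase, fell by 1.07 on the log2 scale, with 7.13 CPM after injury and 14.9 CPM in control (adjp = 9.73e-04, edgeR). The nuclear receptor genes of the list did not change alike. *rxrgb* rose, with 3.65 CPM after injury and 1.15 CPM in control (log2 fold change 1.66, adjp = 0.00103, edgeR). *pparg* rose as well, with 6.70 CPM after injury and 2.66 CPM in control (log2 fold change 1.32, adjp = 0.00254, edgeR). *rxrga* was also called higher (log2 fold change 0.94, adjp = 0.00739, edgeR). By contrast, *nr1h3* had 84.7 CPM after injury and 81.6 CPM in control and was not called (adjp = 0.466, edgeR). *rxrba*, with 77.9 CPM after injury and 78.0 CPM in control, was not called either (adjp = 0.995, edgeR). *nr1h4* had 0 reads.

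**Figure D5:**
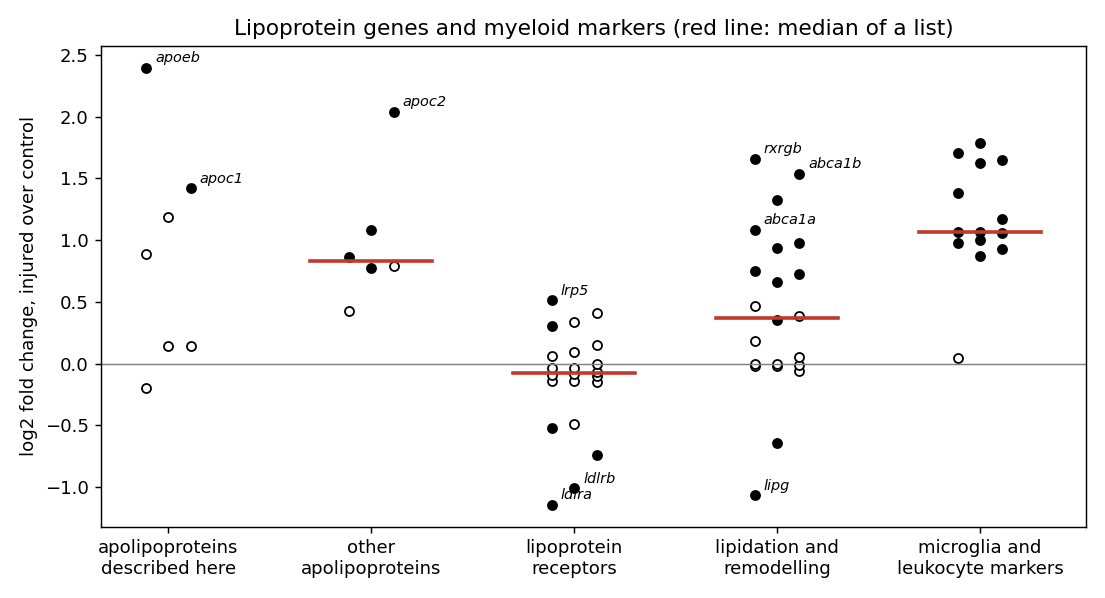
Injury effect on the apolipoprotein genes beside related gene lists. The y axis gives the log2 fold change of injured over control, each circle is 1 gene tested, filled circles have an adjusted p below 0.05 in edgeR's quasi-likelihood test, and red lines are the medians of the lists. *apoeb* at 2.40 lies above every gene plotted, the receptors spread around a median of -0.07, and 13 of 14 microglia and leukocyte markers are filled.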

How the data were processed

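STAR was used by the authors for mapping to GRCz11, with the best scoring locus kept for a read with several. They deposited raw counts per gene from HTSeq in union mode, 1 library per hemisphere, without normalization. Tool versions are not given in the sources used here. Of each library, 27.2% to 29.7% of the reads lay outside genes and 1.45% to 1.53% on several genes, and these were left out. Gene names came from a table of Ensembl names, which named 29201 of 32520 identifiers, and *clu* is listed there as *CLU*. In the lists, 13 further names were given to the only gene left for them.

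Counts were tested in R 4.3.3 with edgeR 4.0.16 (filterByExpr and TMM, glmQLFit and glmQLFTest, condition only, Benjamini-Hochberg adjustment, threshold 0.05). SE is the log2 fold change over the square root of F. Alternatives were DESeq2 1.42.0 with Benjamini-Hochberg or Bonferroni adjustment, RLE, upper-quartile or no scaling beyond library size, no filter, a replicate block, each library left out, and, chosen after seeing the data, the injured library 2 alone. The steps were tested on 3 simulated data sets, each with 200 genes changed 2-fold up or down. The simulated libraries were independent, without replicate pairs, and their spread followed edgeR's trend with expression level. The rates below hold for that setting and are not error rates of the data described here. On average, edgeR and DESeq2 each recovered 74.5% of the changed genes. False calls made up 5.72% of the calls of edgeR and 12.5% of those of DESeq2.

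Across genes, residuals correlated at 0.519, 0.396 and 0.321 between injured and control libraries of equal number, against -0.361 to -0.0832 otherwise. The residuals were taken from group means, so positive values at equal numbers by themselves make the others negative on the whole. The pairing was taken from the values at equal numbers, since no label ties a number to a fish. They cannot tell hemispheres of the same fish from hemispheres processed together. No replicate was a copy of another, as the counts of every pair of a group differed by more than sampling noise (chi-square per degree of freedom 15.3 to 28.5). All 10 apolipoprotein genes are described. From the lists of other apolipoproteins, receptors and lipidation genes, every called gene was named, or the 6 with the smallest *p* where more were called. *ldlra*, *vldlr*, *lrp8*, *abca1a*, *abca1b*, *abcg1*, *lcat* and *pltp* were named in any case. The same was planned for *lrp1aa*, which matched no gene. A called gene of the receptor list is not reported here. The liver genes, *rbp4*, *hexb*, *cd74a*, *cd74b*, *rxrga*, *nr1h3*, *nr1h4* and *rxrba* were named after their values were seen. Genes and lists were chosen with earlier results of these data known.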

Additional observations from a re-analysis of the deposited data

How the results depend on the processing

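*apoeb* and *apoc1* were called higher under each of the 14 alternatives run, and no member was called lower under any. With replicate as a block, 3 of the 10 genes were called higher, *apoa2* being the third, and the block changed no other call among them. The calls of all genes, 3715, became 1318 with DESeq2 and Bonferroni adjustment, 8141 with the replicate block, 1738 for the injured library 2 alone and 1797 to 3017 with a library left out. The calls of other apolipoproteins, 4, became 1 with Bonferroni adjustment, 1 for the injured library 2 alone and 2 to 3 with a library left out. Those of receptors, 6, became 11 with the replicate block. Signs turned only for genes that were not called. For *clu* the log2 fold change was -0.079 to 0.274 with a library left out. For *lrp8* it was 0.024 with library size alone, 0.039 for the injured library 2 alone and -0.068 to 0.029 with a library left out. For *lcat* it was 0.047 with library size alone, 0.15 for the injured library 2 alone and -0.094 to 0.058 with a library left out. The cause of these changes was not tested. Of 376 values of single genes under an alternative, 338 kept direction and side of the threshold. The share of calls that were higher was 70.7%, 86.7% with library size alone, which moved the median log2 fold change of all genes to 0.05, and 55.2% with the block. The paired values of the ratios were 1.68 for *apoeb* to *apoea* (*p* = 0.5, exact permutation within pairs) and 1.06 for *apoa1a* to *apoa1b* (*p* = 0.25). Depth limits *apoea*, *apoa4b.1* and *apoda.1*, whose few reads could not be tested. It also limits *apoa1a*, *apoa2*, *apobb.1*, *apoc2*, *apol1*, *apoba* and *apom*, with under 100 reads in every library.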
